A study of Drosophila melanogaster with 4 samples.

Results

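The centromere-side 2.4 Mb of assembled chromosome arm 3R, positions 1 to 2400000 of FlyBase release 5, stayed covered by clusters of monomethylated histone H3 lysine 9 (H3K9me1) up to the end of the assembled arm. The stretch was chosen by its measured cluster coverage in these same lists, which did not give way to long uncovered stretches toward the centromere as it did on other arms. Its members were the 20 kb tiles and enriched clusters with their midpoint inside those positions. They comprised 120 of the 6017 tiles on the arms and chromosome 4. They also comprised 368 of 15404 clusters in ChIP replicate 1, 344 of 14643 in replicate 2 and 482 of 21525 in the series list. Because the choice used the cluster calls, and coverage, width, gaps and scores all come from those calls, every value below is a description and carries no test.

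The libraries came from head nuclei of wild-type Oregon-R-modENCODE Drosophila melanogaster labelled as mixed adults, with no treatment named. Chromatin from these heads, crosslinked with formaldehyde and sonicated, gave 2 ChIP libraries precipitated with an H3K9me1 antibody (new lot 2). It also gave 2 input libraries, each the reference for the ChIP library of its number. The deposited lists hold clusters rather than reads, so depth is unknown and a base outside a cluster is only a base without a call. Heads are a mixture of neurons, glia, muscle, fat and cuticle cells, and a cluster list cannot tell which of them carried the mark. Whether the replicates were taken from different cages or from the same one is not stated in the labels, and their spread may be technical.

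H3K9me1 is the first methylation step at this lysine. Histone methyltransferases such as Su(var)3-9, eggless and G9a add methyl groups there in flies, and the dimethylated and trimethylated forms are bound by HP1a, the protein that packs repeat-rich heterochromatin around centromeres. Gene-rich chromatin of the arms lies beyond that heterochromatin. In release 5 much of the assembled pericentromeric sequence of 3R is held in a separate sequence, 3RHet. Position 1 of 3R is therefore the end of the assembled arm and not the centromere. The names proximal and interior are used here for 3R 1 to 2400000 and for 3R 3000001 to 26900000, which served as the comparison.

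Clusters began almost at the end of the assembled arm. The cluster nearest to it started 7.11 kb from the end in replicate 1 and 7.18 kb in replicate 2, and 0.895 kb from it in the series list. In replicate 1 this cluster ran from 7113 to 9417 with an authors' score of 0.702, and in replicate 2 from 7176 to 9263 with a score of 0.618. The same cluster was thus found in both replicates. On X the nearest cluster lay at a like distance, 9.21 kb and 9.62 kb from the centromere-side end. On the other arms it lay much farther in and the replicates differed more in where it lay, at 296 kb and 490 kb on 2R, 268.9 kb and 848.3 kb on 2L, and 1291 kb and 1544 kb on 3L. The 3RHet sequence itself was nearly empty, with 7 clusters in replicate 1 and 5 in replicate 2, a coverage of 0.388 ± 0.0895% (SD, n = 2).

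Coverage, the percent of bases under clusters, stayed near the level of the whole stretch at the arm end in the replicates, and was somewhat lower there in the series list. It was lower there than in the block from 800001 to 1200000, which held 55.5% in replicate 1 and 51.2% in replicate 2. In the first 100 kb it was 41.0% in replicate 1 and 38.1% in replicate 2, and in the next 100 kb 39.6% and 39.3%. These values sat near those of the whole 2.4 Mb, 42.6% and 38.3%, a mean of 40.4 ± 3.02% (SD, n = 2). The authors' series list covered 60.9% of the whole, but 53.6% of the first 100 kb and 49.5% of the next. The 20 kb tile at the very end was low, at 11.5% and 10.4%, and the tile next to it held 45.7% and 37.3%. At the 100 kb scale the replicates thus showed no drop at the arm end far below the level of the whole stretch, with 1 thinly covered tile at the tip.

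**Figure D1:**
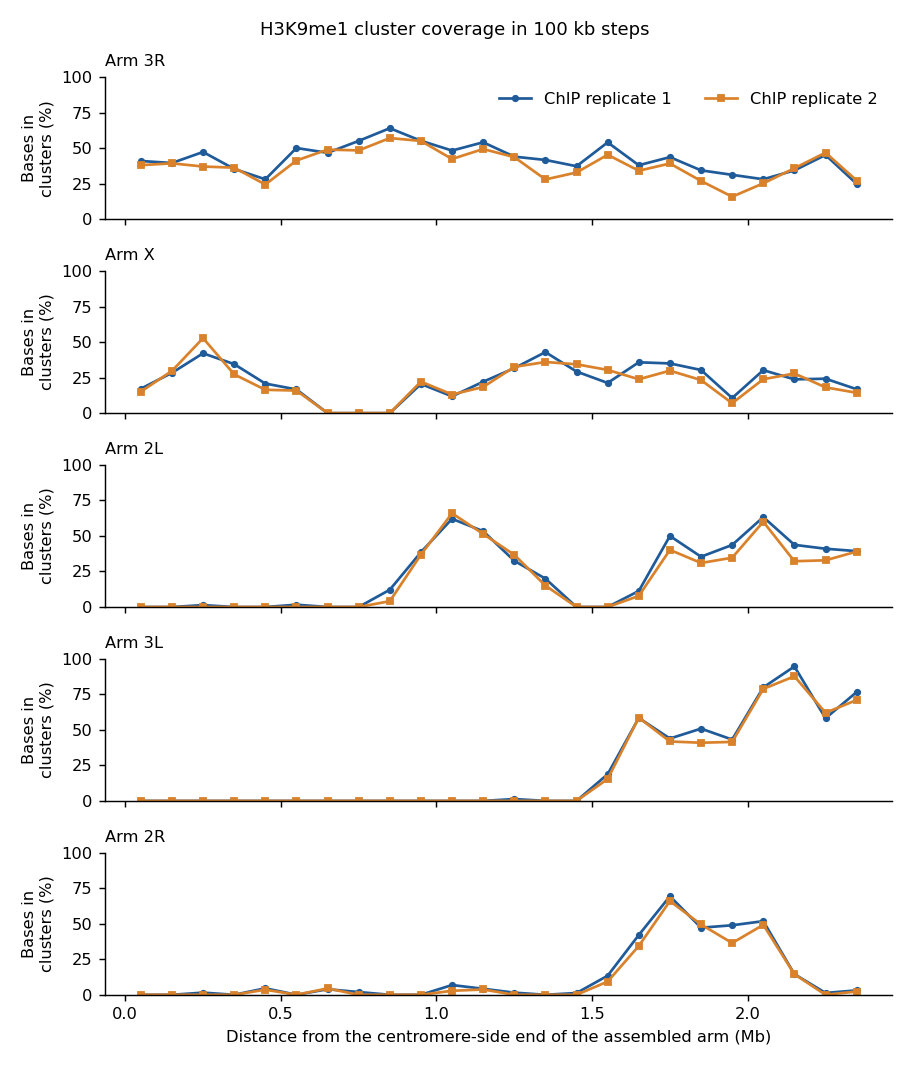
Percent of bases in H3K9me1 clusters (vertical axis) in 100 kb steps against the distance from the centromere-side end of each assembled arm in Mb (horizontal axis), with circles for ChIP replicate 1 and squares for replicate 2. On 3R no step fell under 5% on average over the replicates, whereas 3 of 24 did on X, 10 on 2L, 15 on 3L and 17 on 2R.

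Over the same distance from their own assembled ends, the other arms held long uncovered stretches. How far each end lies from its centromere is not known here, so the arms may not be compared at like positions. Over the last 2.4 Mb on the centromere side, mean coverage was 22.0 ± 0.988% on X, 21.6 ± 1.80% on 2L, 21.2 ± 0.478% on 3L and 12.4 ± 1.22% on 2R (SD, n = 2 each). All lay below 3R in both replicates. The arms were picked for that contrast, so no test is given. The difference lay mostly in how many clusters there were. Cluster density was 148 ± 7.07 per Mb on 3R, 98.8 ± 1.77 on X, 84.4 ± 0.884 on 2L, 53.3 ± 2.95 on 3L and 39.6 ± 1.77 on 2R. Median cluster width was 1987 ± 3.18 bp on 3R and 1953 ± 36.4 bp on 2L, but 2582 ± 245 bp on 3L, where the remaining clusters were packed into the far side of the 2.4 Mb. Among the 100 kb steps of 3R, mean coverage ran from 23.6% to 60.6%. On each other arm the lowest step held 0%, and the highest reached 91.2% on 3L.

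Proximal 3R was more densely covered than the interior of the same arm in both replicates. Coverage was 42.6% against 35.7% in replicate 1 and 38.3% against 31.6% in replicate 2. The ratio was 1.202 ± 0.0138 (SD, n = 2). In the series list it was 1.12, from 60.9% against 54.4%. The excess was 6.77 ± 0.118 percentage points, in the same coverage by which the stretch was chosen. Its SD is over 2 libraries and does not measure how coverage varies along the arm.

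The higher coverage went mostly with more clusters, and little with wider ones. Replicate 1 held 153 clusters per Mb in proximal 3R and 130 in the interior, and replicate 2 held 143 and 121. The ratio was 1.18 ± 0.00130 (SD, n = 2), and 1.09 in the series list. Median cluster width was 1985 bp against 2047 bp in replicate 1 and 1990 bp against 1989 bp in replicate 2. The mean difference of the medians, -30.8 ± 44.2 bp, was smaller than its SD, so 2 replicates do not settle its sign. In the series list the proximal median was wider, 2136 bp against 2052 bp. Mean width was slightly higher in proximal 3R in each list. It was 2777 bp against 2750 bp in replicate 1, 2673 bp against 2608 bp in replicate 2 and 3033 bp against 2940 bp in the series list. Clusters under 2 kb made up 50.4 ± 0.179% of proximal and 48.8 ± 2.29% of interior clusters. Those of 10 kb or more were few in proximal 3R, 7 in each replicate, or 1.97 ± 0.0938% of clusters against 1.23 ± 0.176% in the interior. They held 8.85 ± 1.01% of its covered bases against 6.11 ± 0.865% in the interior.

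The gaps between neighbouring clusters were shorter. The median gap was 2031 bp in proximal and 2408 bp in interior 3R in replicate 1, and 2195 bp and 2728 bp in replicate 2. The mean difference was -455 ± 111 bp (SD, n = 2), and in the series list the medians were 1070 bp and 1236 bp. Very short gaps were about equally common in both parts. Gaps under 1 kb made up 28.1 ± 1.44% of proximal and 27.5 ± 2.45% of interior gaps. Gaps of 10 to 20 kb were also about equally common, at 9.05 ± 1.63% and 9.42 ± 0.884%. In the series list gaps of 10 to 20 kb were less common in proximal 3R, at 1.87% against 3.10%. Gaps of 1 to 5 kb were more common in proximal 3R, at 47.5 ± 0.477% against 41.7 ± 0.509%. Those of 5 to 10 kb were less common, at 14.2 ± 1.11% against 17.0 ± 1.61%, and the longest class was scarce. Gaps of 20 kb or more were 3 of the proximal gaps in replicate 1 and 5 in replicate 2, or 1.14 ± 0.453%, against 126 and 137 in the interior, or 4.39 ± 0.474%. The longest proximal gap spanned 44297 bp in replicate 1, against 48715 bp in replicate 2, whereas the much longer interior reached 130443 bp and 264600 bp. With clusters under the median score of their list left out, the median gap was longer in proximal 3R by 377 ± 1424 bp, and with clusters under 2 kb left out by 242 ± 15.2 bp. The SD under the score limit exceeded the mean, so that value gives no clear sign. With clusters under 1 kb apart joined, the difference was -692.5 ± 450 bp, so the proximal median gap stayed shorter. The shorter median gap thus held in the full lists, but not with clusters under 2 kb left out.

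**Figure D2:**
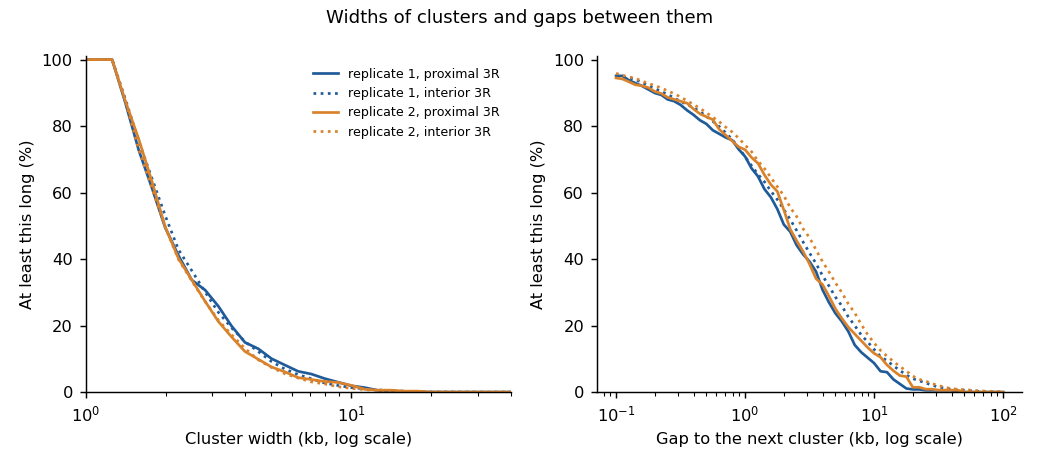
Percent of clusters at least as wide as the value on the horizontal axis (left) and of gaps at least as long (right), in kb on log axes, for ChIP replicates 1 and 2 in proximal 3R (solid lines) and interior 3R (dotted lines). The width curves lie almost on each other, and the proximal gap curves fall off sooner, with 1.14% of gaps at 20 kb or more against 4.39% in the interior.

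Interior 3R is itself uneven, so proximal 3R was set beside the 9 consecutive windows of 2.4 Mb that the interior holds. Its cluster density exceeded that of all 9 in each replicate and in the series list. The 9 windows ran from 105 to 147 clusters per Mb in replicate 1 and from 102 to 132 in replicate 2. By the mean of the replicates the nearest window was 3R 3000001 to 5400000, with 139 ± 10.3 per Mb (SD, n = 2). It held 147 per Mb in replicate 1 and 132 in replicate 2, against 153 and 143 in proximal 3R. Both parts come from the same 2 libraries, so the SD of a window is not the spread of its difference from proximal 3R. Coverage was also above that of all 9 in each replicate, but by a small margin. The window 5400001 to 7800000 held 39.8 ± 3.87%. It held 42.5% in replicate 1 and 37.1% in replicate 2, against 42.6% and 38.3% in proximal 3R. In the series list 1 of the 9 windows, at 61.8%, was covered more. Median gap lay under all 9 in replicate 2 and under 8 of 9 in replicate 1. Median width fell in the middle of the range, above 5 and below 4 windows by the mean.

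A finer set of windows of the same length, starting every 100 kb and so overlapping one another, gave a similar picture. By the mean of the replicates, the density of each of the 216 was below that of proximal 3R, the highest being 147.5 per Mb. In replicate 1 the densest reached 155 per Mb, above the 153 of proximal 3R, and in the series list 206 of the 216 lay below it and the densest reached 210 per Mb. Mean coverage was below it in 207 and reached 43.7% in the densest. The mean of the median gaps was shorter in 2 of the 216. Proximal 3R therefore stood near the upper end of the arm in density, while some of these overlapping windows reached or exceeded its mean coverage. None of the 9 consecutive windows did by the mean, the highest being 39.8%.

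**Figure D3:**
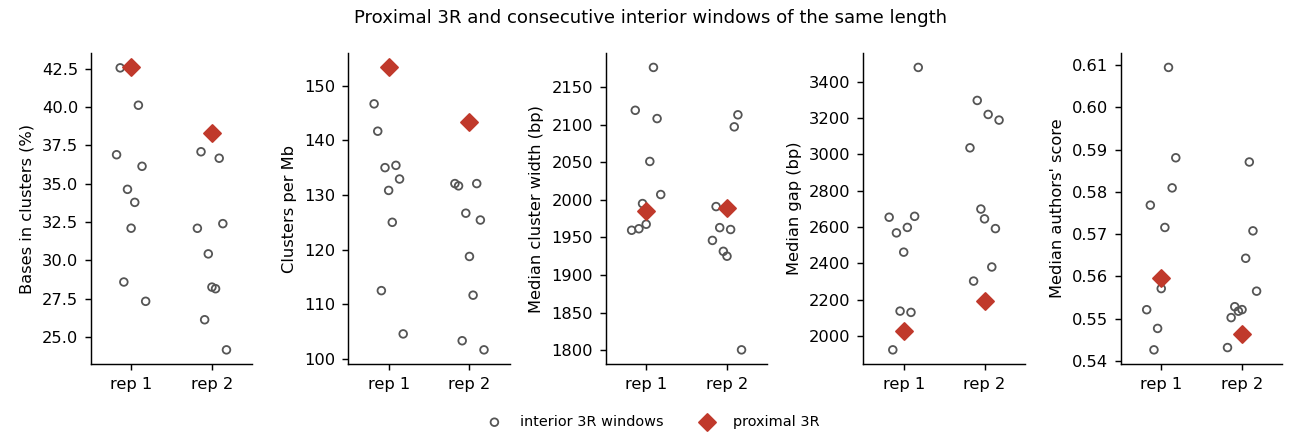
Coverage, clusters per Mb, median cluster width, median gap and median authors' score (vertical axes, none starting at 0) for proximal 3R (diamonds) and the 9 consecutive interior windows of 2.4 Mb (open circles), in ChIP replicates 1 and 2 (horizontal axis). The diamond is the highest point for density in each replicate, 153 and 143 per Mb, and sits within the circles for width and score.

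Nearly every tile of proximal 3R held some enriched sequence, at very unequal levels. Of its 120 tiles, 115 held an enriched base in both replicates, or 95.8%, where 86.6% of all 6017 tiles on the arms and chromosome 4 did. Interior 3R stood at 87.6%, and its 9 windows ran from 77.5% to 94.2%. At least 50% of bases lay under clusters in both replicates in 31 of the 120 tiles, or 25.8%, against 18.9% of all tiles and 18.5% of interior tiles. A single interior window equalled that share and the other 8 lay below it. A single tile, 400001 to 420000, held no enriched base in either replicate, or 0.833% of the tiles, against 7.73% of all tiles and 5.19% of interior tiles, and 1 of the 9 interior windows held fewer. That tile was also empty in the series list, where 4.65% of all tiles and 1.26% of interior tiles were, and 3 of the 9 windows held fewer. The share over all tiles includes the sparse centromere sides of other arms. These counts come from the calls on which the stretch was chosen, so nothing is read from their distance to the background.

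Tile coverage in replicate 1 ran from 0% to 89.7% with a median of 43.1%. In replicate 2 it ran from 0% to 92.3% with a median of 37.8%. Interior medians were lower, 34.2% and 29.4%. The longest run of tiles with at least 50% in both replicates was 4 tiles, from 880001 to 960000. The interior, with 1195 tiles, held runs of 10, 5, 4 and 4 tiles as its longest. Neighbouring tiles resembled each other little, with a Pearson's r between adjacent tiles of 0.151 in replicate 1 and 0.197 in replicate 2. In the 9 interior windows, each also of 120 tiles, that r had a median of 0.406 and 0.377. It lay above the proximal value in all 9 in replicate 1 and in 8 of 9 in replicate 2. These r values are across tiles of 1 library, which share its depth and calls, and carry no p.

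**Figure D4:**
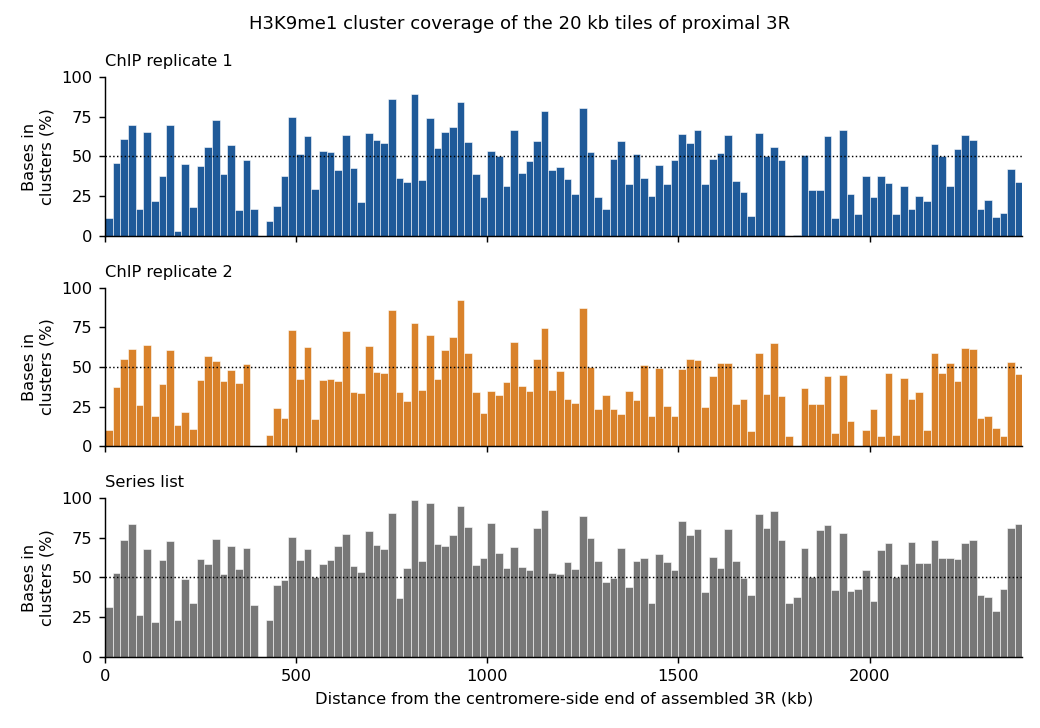
Percent of bases in H3K9me1 clusters (vertical axis) in each of the 120 tiles of 20 kb against the distance from the centromere-side end of assembled 3R in kb (horizontal axis), for ChIP replicate 1, ChIP replicate 2 and the series list, with a dotted line at 50%. High and low tiles lie mixed along the stretch, with some short runs of like tiles. The highest tiles lie between 740 and 1260 kb, and the tile from 400 to 420 kb is at 0 in each list.

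Along the stretch, coverage was highest near its middle and lowest in its last 800 kb, the part farthest from the centromere, in the replicates. In consecutive blocks of 400 kb from the arm end, mean coverage over the replicates was 39.3 ± 2.21%, 42.8 ± 3.02%, 53.3 ± 3.04%, 40.6 ± 4.97%, 33.2 ± 5.41% and 33.4 ± 0.536% (SD, n = 2 each). The block from 800001 to 1200000 stood above its neighbours by more than these SDs. It had the widest clusters, with a median of 2471 ± 130 bp. Its density of 160 ± 3.54 per Mb was the highest by the mean only. In replicate 1 the next block was denser, at 170 against 162.5 per Mb, in replicate 2 the last block had the same 157.5 per Mb, and in the series list the last block was the densest, at 235 against 180 per Mb. The last 800 kb kept its density, 144 ± 15.9 and 151 ± 8.84 per Mb, with narrower clusters of 1822 ± 142 bp and 1892 ± 20.9 bp. Between the middle block and the last 800 kb, the fall in coverage thus went with median width more than with density. Into the middle block from its arm-end side, density rose too, from 134 ± 1.77 to 160 ± 3.54 per Mb. In the series list the last blocks were not lower, at 62.2% and 59.3%, against 53.5% in the block at the arm end.

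The tiles with the highest mean coverage lay in or beside that middle block. Tile 920001 to 940000 was covered to 84.6% in replicate 1 and 92.3% in replicate 2. Tile 740001 to 760000 followed at 86.4% and 86.1%, tile 1240001 to 1260000 at 80.7% and 87.5%, and tile 800001 to 820000 at 89.7% and 77.7%. All were above 77% in each replicate. The lowest tiles with an enriched base in both replicates were 420001 to 440000, at 9.11% and 6.99%, and 180001 to 200000, at 2.97% and 13.6%.

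The widest clusters were named among series clusters that both replicates overlap, so their presence in both was set by that choice. How much of each the replicates covered, and in how many pieces, was not. The widest, 3R 1249199 to 1268810, was 19.6 kb long with a series score of 0.749. Replicate 1 covered 98.5% of it with 3 clusters and replicate 2 covered 95.4% with 2. The next, 914179 to 933269, was 19.1 kb long and lay under 1 unbroken cluster in replicate 2, which covered 99.9% of it, and under 3 clusters in replicate 1, which covered 95.3%. A further wide cluster, 614413 to 629106, had a length of 14.7 kb, with 93.8% of it covered in replicate 1 and 83.1% in replicate 2. The cluster at 848667 to 862212, 13.5 kb long, was covered to 87.4% and 82.2%. A pair of wide clusters stood side by side at 736638 to 749709 and 751538 to 764365, 13.1 kb and 12.8 kb long, and each was covered to at least 92.8% in both replicates. All 6 of these lay between 600 and 1300 kb from the arm end.

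The highest-scoring series clusters were mostly not among the widest. The score is the authors' own, and its scale is not given in the sources used here, so it ranks clusters within a list only. The highest series score in proximal 3R was 1.60, in a cluster of 1.99 kb at 1275097 to 1277085 that touched no cluster of either replicate. Among the clusters that both replicates overlap, the highest was 1.06, at 107393 to 112046, a cluster of 4.65 kb with top scores of 1.21 in replicate 1 and 0.986 in replicate 2. A cluster of 2.90 kb at 1082832 to 1085731 followed with 1.05, and one of 4.76 kb at 117529 to 122283 with 1.02. The 107393 and 117529 clusters lie near each other, close to the arm end. The next were 1496154 to 1504676 with 0.977 and 1529856 to 1537660 with 0.951. The cluster at 751538 to 764365, with 0.942, was the only one of the 6 highest that was also among the 6 widest. No release 5 gene annotation was used here, so genes, exons and introns under these clusters are not named, and no genome sequence of that release was used to print bases.

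Scores as a whole were close to those of the interior. The median score was 0.560 in proximal and 0.576 in interior 3R in replicate 1, and 0.546 and 0.563 in replicate 2. The difference, -0.0162 in each replicate, was nearly identical in both but small beside the spread of scores, whose middle 50% ran from 0.468 to 0.690 in proximal 3R of replicate 1. Among the 9 interior windows the median score lay above 4 in replicate 1 and above 1 in replicate 2. In the series list the medians were 0.402 and 0.404. Wider clusters scored higher, with a Spearman's rho of width and score of 0.702 across 368 clusters of replicate 1 and 0.693 across 344 of replicate 2. Pearson's r was 0.643 and 0.574. The interior rho values were 0.713 and 0.674. Both quantities come from the same reads and the same calls, and no p is given.

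Few stretches of 20 kb or more in proximal 3R lacked a cluster in both replicates. The longest, 389146 to 426956, was 37.8 kb long and held 2 series clusters over 7.56% of its bases. The next was 1796406 to 1819928, 23.5 kb long, of which series clusters covered 32.0%. These were the only shared stretches of 20 kb or more, and together they made up 2.56% of the sequence. In interior 3R 98 such stretches made up 13.3%, and the 9 windows ran from 6.07% to 20.4%. The other long stretches were 2296876 to 2314886, 1777112 to 1795043 and 1570024 to 1587720, each between 17697 and 18011 bp long and covered by series clusters to 12.8% or more. Shared stretches of 10 kb or more were less unlike the interior. They numbered 28 in proximal 3R, or 11.7 per Mb and 16.9% of the sequence, against 13.6 per Mb and 26.6% in the interior. None of the 31 regions that the authors typed as depleted in the series list lay in proximal 3R. The rest of the arm held 7, or 0.659 per 2.4 Mb, so a count of 0 is near what the length alone would give.

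The replicates placed their clusters alike, more so near the arm end. They shared 787 kb of the 1155 kb covered in either, a Jaccard index, the shared part of all bases covered by at least 1 of the lists, of 0.681. Interior 3R as a whole stood at 0.643, and its 9 windows ran from 0.569 to 0.692, with 8 below proximal 3R. Within the stretch the index was 0.770 in the first 400 kb, 0.759 and 0.730 in the next blocks, and 0.659, 0.553 and 0.582 in the last 3. Coverage was also lower in the last blocks, and its part in the lower index was not tested. Of the clusters of replicate 1, 290 of 368 touched a cluster of replicate 2, or 78.8%, and of those of replicate 2, 303 of 344 did, or 88.1%. Clusters seen in 1 replicate alone were narrower, with a median of 1481 bp against 2210 bp for shared ones in replicate 1, and 1467 bp against 2066 bp in replicate 2.

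Across the 120 tiles the coverage of the replicates gave a Spearman's rho of 0.851 and a Pearson's r of 0.864. Across the 1195 interior tiles these were 0.902 and 0.908. Tiles of a replicate share its library and calls, so no p is given. Replicate 1 was higher in 85 of the proximal tiles and replicate 2 in 34. The tile with the largest disagreement was 1340001 to 1360000, at 59.8% in replicate 1 and 20.3% in replicate 2. The next were 2020001 to 2040000, at 37.7% and 6.52%, and 1480001 to 1500000, at 47.6% and 19.2%. Replicate 1 was the higher in all 3, and all 3 lay beyond the first 1.2 Mb. Of the bases of the series list, 53.8% lay under clusters of both replicates and 21.6% under neither, against 48.5% and 25.3% in the interior.

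The border of the stretch at 2400000 fell inside covered sequence. The last tile inside, 2380001 to 2400000, was covered to 34.0% in replicate 1 and 45.7% in replicate 2, and the first tile outside to 34.4% and 27.8%. In replicate 1 the last cluster inside was 2397950 to 2399465, with a score of 0.414, and the first outside 2399578 to 2401626, with 0.570. In replicate 2 these were 2393788 to 2395323, with 0.592, and 2400189 to 2401543, with 0.456. In the series list they were 2397942 to 2399548, with 0.344, and 2399562 to 2403813, with 0.445. Clusters thus lay close on both sides of the border in each list.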

How the data were processed

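Lists of H3K9me1 clusters for 2 ChIP libraries and for the whole series were analysed, on FlyBase release 5 per the file headers. The submitters' processing notes name Bowtie 0.12.7 as a tool, a read aligner. The deposited score of each cluster is the authors' own. The sources used here do not give its scale, the caller of the clusters, the calling threshold or how the series list was combined. The narrowest cluster was 1301 bp in each replicate list and 1001 bp in the series list. Depth is unknown, so no counting interval is given.

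Clusters belonged to a region by their midpoint. Coverage of a region summed its members' widths, and that of tiles, 100 kb steps and shared stretches counted bases. Gaps ran from the end of a cluster to the start of the next. In place of random windows, every consecutive 2.4 Mb window of the interior, and every window at 100 kb steps, was measured. The interval counts were checked against base-by-base counts on 20 artificial cluster sets. No test was run, since the stretch was chosen on the calls. Members, lists and alternatives were chosen with earlier results of these data known. Named regions followed a rule: among series clusters that both replicates overlap by at least 1 bp, the 6 widest and the 6 with the highest score, the 5 longest shared stretches without a cluster, the 4 highest tiles and the 2 lowest with a base in both replicates, and the clusters at the border. Tiles in which the replicates differed most, the runs of tiles and the top series score outside this rule were added after their values were seen. The gene table used here is on release 6, so no gene was placed. Alternatives covered score, width, joining of clusters, region length, comparison, membership, list, tile size and leaving out each replicate. Python 3.11.15, NumPy 2.4.6, SciPy 1.17.1 and Matplotlib 3.10.9 were used.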

Additional observations from a re-analysis of the deposited data

How the results depend on the processing

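Of 67 alternative values, 29 stayed within the replicate SD, 27 moved further and 11 changed sign. For the Jaccard index the limit was the SD over the 9 interior windows, and for tile counts 1.5 times. With 2 replicates, a value from 1 of them lies within the SD of their mean by construction. Leaving out a replicate therefore says nothing on stability where the SD was the limit. Coverage and the index could not move when only the comparison changed, nor the index with membership by overlap. Counting only clusters at or above their own list's median score, coverage was 22.6%, its ratio to the interior 1.15, the density ratio 1.07, the Jaccard index 0.563 and tiles empty in both replicates 21. The median differences of proximal from interior 3R then turned to 121.5 bp in width, 377 bp in gap and 0.0114 in score. With clusters of at least 2 kb, coverage was 28.4%, the density ratio 1.15 and the index 0.642, and the differences turned to 112 bp in width, 242 bp in gap and 0.00300 in score. Joining clusters under 1 kb apart gave a density ratio of 1.17, a gap difference of -692.5 bp, a score difference of -0.00917 and a width difference turned to 400.2 bp. In the first 1.2 Mb alone, coverage was 45.1%, its ratio 1.34 and the index 0.751, and the width and score differences turned to 102.5 bp and 0.00767. Against all 3R beyond 2.4 Mb the density ratio was 1.19 and the score difference -0.0172, and with membership by overlap the density ratio was 1.18. The series list gave a coverage of 60.9%, ratios of 1.12 and 1.09, a gap difference of -166 bp, a score difference of -0.00242 and a width difference turned to 84 bp. Leaving out a replicate gave width differences from -62 to 0.5 bp and 2 to 4 empty tiles. Empty tiles numbered 12 of 240 at 10 kb and 0 of 60 at 40 kb, and 2 tiles of 20 kb had under 5% of bases covered.

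The coverage and density ratios stayed above 1 under each setting run, while the signs of the width, gap and score differences depended on which clusters were counted. A threshold on score or width leaves fewer clusters by construction; beyond that, the cause was not tested. No paired analysis was possible because the inputs have no list of their own here, their reads being used in calling the ChIP clusters, and no test compared groups. Unknown depth limits every statement on sequence without clusters.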
